A study of Mus musculus with 16 samples.

Results

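The genes described here are the core machinery of the G1 phase and the restriction point, taken by name: the D-type cyclins *Ccnd1*, *Ccnd2* and *Ccnd3*, the E-type cyclins *Ccne1* and *Ccne2*, the kinases *Cdk2*, *Cdk4* and *Cdk6*, and the pocket proteins *Rb1* and *Rbl2* (p130). These are 10 of the 22114 genes counted, named with earlier results of these data known. RNA-seq was performed on sorted DN3 thymocytes, the immature CD4- CD8- T-cell progenitors at the stage of T-cell receptor beta rearrangement, from C57BL/6 mice (lines backcrossed to C57BL/6J). GFPhi and GFPlo cells (3 libraries each) came from H2B-GFP;Lmo2Tg mice, which carry the CD2-Lmo2 transgene, *Lmo2* under a CD2 promoter, and a doxycycline-inducible histone H2B-GFP, and were sorted when 6 weeks on doxycycline had been followed by 2 weeks off it. GFPhi cells had diluted the label little, and GFPlo cells had diluted it more. Both groups therefore carry the transgene and there was no GFP-sorted group without it. Total DN3 cells, unsorted for label, came from 6-week-old wild-type (WT, 3 libraries), p21-/- (germline loss of *Cdkn1a*, 2 libraries), Lmo2Tg (2 libraries) and Lmo2Tg;p21-/- mice (2 libraries). The RNA came from pooled samples. Per the paper, GFPhi and GFPlo cells were profiled from 3 independent cohorts of mice, and a supplementary legend gives the mice as 2 months old. Whether equal replicate numbers mark the same cohort is not given, and the main test did not pair the libraries. A pool of sorted cells from 3 to 5 mice of 6 weeks is described beside an array. Whether it also holds for RNA-seq is not given in the sources used here. The p-values measure the spread between libraries, which may in part be technical.

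In G1, mitogenic signals raise the D-type cyclins, which bind CDK4 or CDK6 and begin to phosphorylate the pocket proteins RB1, p107 (*Rbl1*) and p130. Unphosphorylated pocket proteins hold E2F transcription factors in check, and p130 with E2F4 and the MuvB core forms the DREAM repressor complex of quiescent cells. Released E2F activates the E-type cyclins, which bind CDK2 and drive entry into S phase. The CDK inhibitors of the Cip/Kip family (p21, p27, p57) and the INK4 family oppose these kinases. In developing T cells *Ccnd3* and *Cdk6* are the best known D-cyclin and partner kinase, with a requirement for cyclin D3 in the expansion of DN thymocytes after beta selection.

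Total counts were 26861394 to 31106213 in the GFP libraries and 13864936 to 16837667 in the genotype libraries, so that 3 counts, the smallest level taken as detected, stood at 0.0964 to 0.112 CPM (read counts divided by the normalized library size) and 0.178 to 0.216 CPM, for counting error only. The 12 markers of DN3 cells summed to 9993 to 13859 CPM and none was at 0. Markers of other cells were far lower: 20.5 to 50.3 CPM for 10 B-lineage genes, 10.8 to 37.4 CPM for 7 myeloid and dendritic genes, 1.75 to 30.8 CPM for 5 erythroid genes and 14.1 to 79.6 CPM for 5 thymic epithelial genes, of which *Foxn1* and *Krt5* were at 0 in every genotype library. The targeted gene *Cdkn1a* was at 41.0 ± 6.93 CPM (SD, n = 3) in WT, 16.0 ± 2.42 (n = 2) in p21-/-, 29.6 ± 4.60 (n = 2) in Lmo2Tg and 3.93 ± 0.602 (n = 2) in Lmo2Tg;p21-/- libraries. It was lower in both p21-/- groups than in their controls, but not absent, and the sources used here do not say which part of the gene was deleted. *Lmo2* was at 0.204 ± 0.126 CPM in WT and 0.183 ± 0.00990 in p21-/- libraries, against 41.4 and 100.4 CPM in the Lmo2Tg and 85.4 and 107 CPM in the Lmo2Tg;p21-/- libraries. GFPhi replicate 3 stood apart from the other GFPhi libraries. It had 285 CPM of *Lmo2* against 29.5 to 53.8 CPM in the others, and 6.56 CPM of *Cdkn1a* against 35.8 and 29.9 CPM in GFPhi replicates 1 and 2. For *Cdkn1a* it lay nearer to the GFPlo libraries, the lowest of which was at 8.08 CPM and the next at 11.1 CPM. The GFPhi results are therefore also given without it.

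Promoter sequences (250 bases before to 50 after a start site, RefSeq, GRCm38.p6) were at hand for 6 of the 10 genes, with a pair for *Ccnd3*. Those of *Cdk2*, *Cdk4* and *Rbl2* are shown, since these are the genes with a called change in at least 1 fit below whose promoters held a searched motif. They run 5′ to 3′ on the gene's strand, and capitals mark every match, on either strand, to the E2F motif (TTTCCCGC, TTTCGCGC, TTTGCCGC or TTTGGCGC), the E-boxes CAGCTG and CAGGTG, the RBPJ motif TGGGAA, the CHR motif TTTGAA and the E-box CACGTG. The last of these was added after the sequences had been seen.
Cdk2, chr10:128705002-128705301, minus strand: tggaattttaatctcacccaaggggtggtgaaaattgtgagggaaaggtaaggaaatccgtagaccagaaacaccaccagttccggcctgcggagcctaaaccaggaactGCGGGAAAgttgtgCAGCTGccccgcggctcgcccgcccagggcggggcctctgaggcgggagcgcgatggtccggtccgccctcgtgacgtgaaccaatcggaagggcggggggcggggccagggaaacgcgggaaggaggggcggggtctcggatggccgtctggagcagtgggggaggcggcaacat
Cdk4, chr10:127063285-127063584, plus strand: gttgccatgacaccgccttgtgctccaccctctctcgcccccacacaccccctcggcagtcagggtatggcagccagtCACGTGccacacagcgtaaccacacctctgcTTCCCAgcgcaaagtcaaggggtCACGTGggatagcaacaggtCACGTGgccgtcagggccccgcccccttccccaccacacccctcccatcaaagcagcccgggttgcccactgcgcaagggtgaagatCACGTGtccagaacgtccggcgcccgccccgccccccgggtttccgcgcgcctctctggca
Rbl2, chr8:91069807-91070106, plus strand: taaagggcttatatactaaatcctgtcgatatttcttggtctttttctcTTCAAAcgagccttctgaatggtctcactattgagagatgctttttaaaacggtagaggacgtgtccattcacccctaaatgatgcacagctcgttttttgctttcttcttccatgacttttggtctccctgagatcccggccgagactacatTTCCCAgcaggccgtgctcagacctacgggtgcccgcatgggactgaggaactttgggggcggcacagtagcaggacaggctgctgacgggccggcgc

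The *Cdk2* promoter held an E2F match at -140 and a CAGCTG at -126 relative to the start site. E2F matches were present in 2.26% of all 32851 promoters of this length and CAGCTG or CAGGTG in 32.9%. The *Cdk4* promoter held 4 copies of CACGTG, the E-box preferred by MYC, at -172, -118, -98 and -11, and an RBPJ match at -141. CACGTG was found at least once in 7.15% of promoters and the RBPJ letters in 25.6%. The *Rbl2* promoter held an RBPJ match at -48 and a CHR match at -201, the latter a motif found in 17.9% of promoters and known from genes repressed by DREAM. The *Cdk6* promoter held CACGTG at -220, and those of *Ccnd3* and *Ccne1* held none of these letters. A match describes the letters only and was not tested for binding.

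On GRCm38 (GENCODE M21) the 5 genes whose changes with the transgene are called below lie on 5 chromosomes: *Ccnd2* (ENSMUSG00000000184) at chr6:127125162-127152193 on the minus strand, *Ccne2* (ENSMUSG00000028212) at chr4:11191351-11204779 on the plus strand, *Cdk4* (ENSMUSG00000006728) at chr10:127063534-127067920 on the plus strand, *Rb1* (ENSMUSG00000022105) at chr14:73183673-73325822 on the minus strand and *Rbl2* (ENSMUSG00000031666) at chr8:91070057-91123844 on the plus strand. *Ccnd1* and *Ccne1* lie on chromosome 7, *Ccnd3* on 17, *Cdk2* on 10 and *Cdk6* on 5. Counts are sums over a gene's exons. Exons of 9 of the 10 genes overlap a gene on the other strand, for example *Ints8* at *Ccne2*, *Rcbtb2* and *Lpar6* at *Rb1* and *Aktip* at *Rbl2*, and their counts are uncertain, above all in the genotype table, whose name reads as unstranded counting.

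Transcripts of the 10 genes differed widely in level. In WT DN3 cells, per length of exon, *Cdk4* and *Cdk6* were highest, with 137 to 167 and 92.0 to 121 CPM per kb, an order that turned when coding length was used. *Ccnd2*, with 31.8 to 34.4, and *Ccnd3*, with 28.3 to 39.8 CPM per kb, overlapped. *Cdk2*, *Ccne2*, *Ccne1*, *Rb1* and *Rbl2* lay between 7.66 and 20.3 CPM per kb. *Ccnd1*, the D-type cyclin of many epithelial and fibroblast lines, was close to the limit of detection, at 1.27 to 1.65 CPM (21 to 27 counts) in WT libraries. In the GFP libraries it was at 0.11 to 0.27 CPM (3 to 8 counts), too low to be tested there. These levels cannot be set against each other, since the names of the deposited tables read as reverse-stranded counting for the GFP and unstranded counting for the genotype libraries, and exons of *Ccnd1* overlap *LTO1* on the other strand. DN3 cells thus expressed *Ccnd2* and *Ccnd3* as their D-type cyclins in every group, and *Ccnd1* made up 0.362% to 0.575% of D-cyclin transcripts per length in WT libraries.

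**Figure D1:**
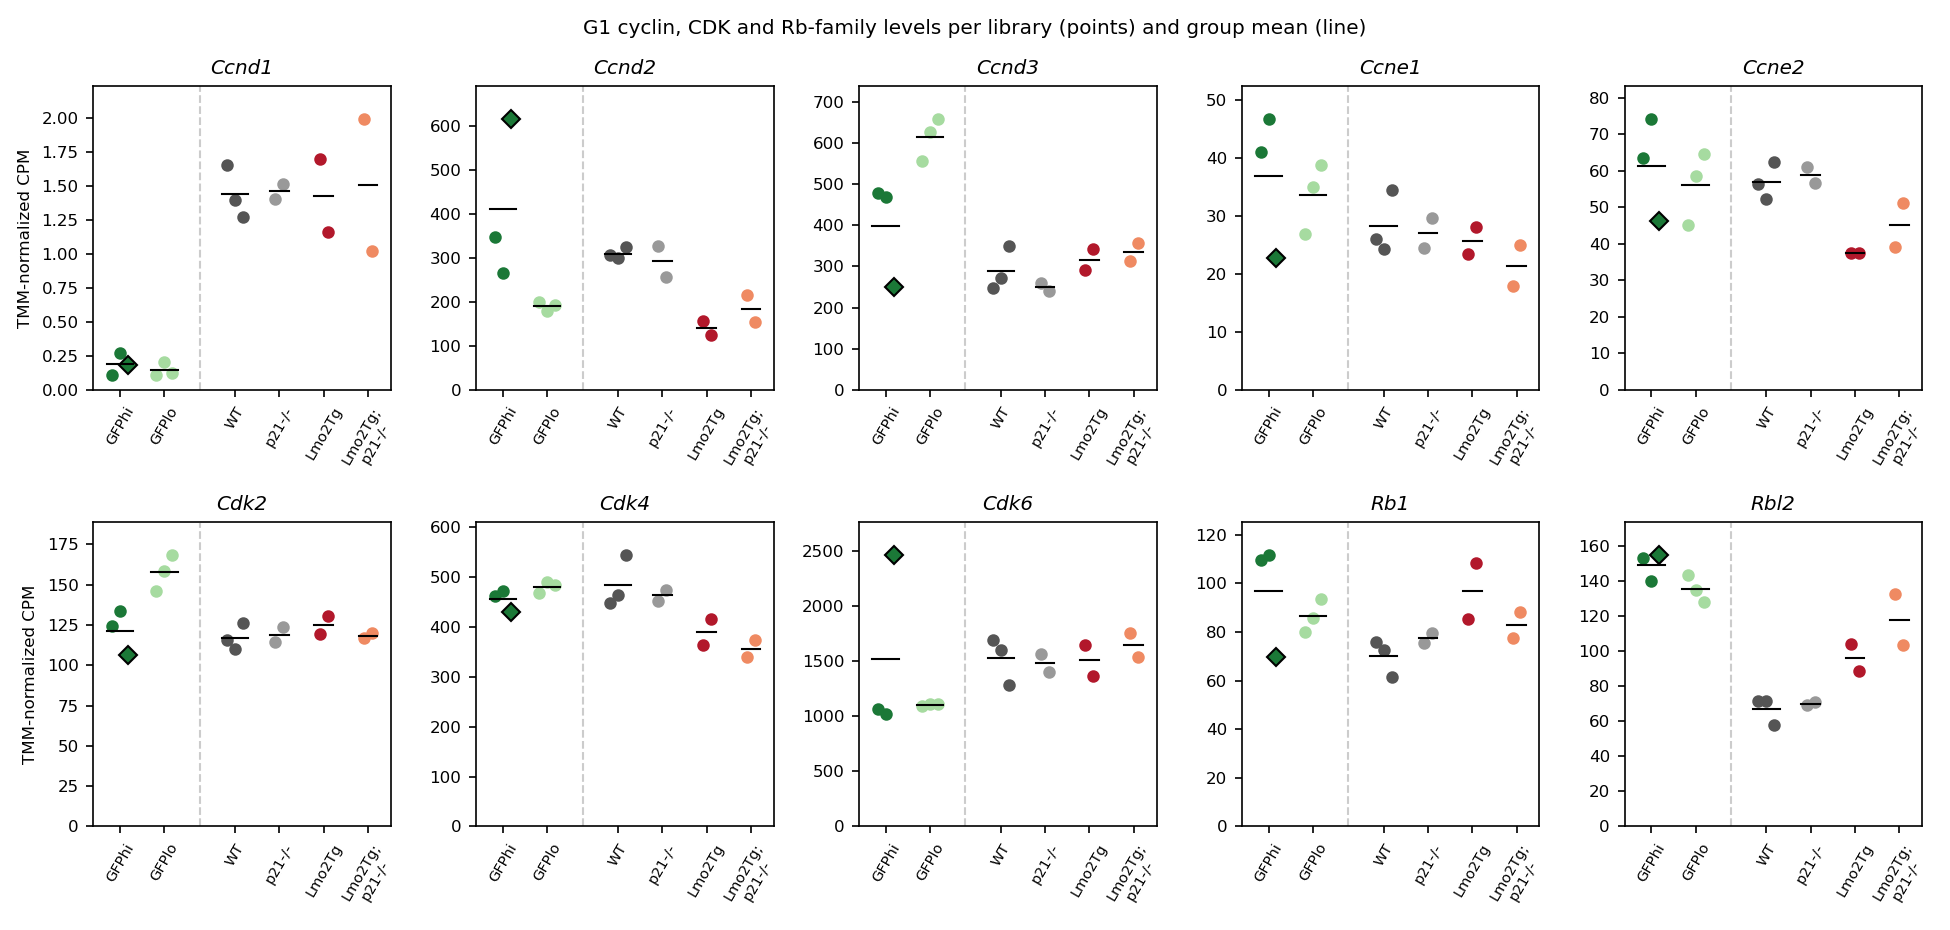
TMM-normalized CPM (y axis, linear, from 0) of each gene in each of the 15 libraries, with 1 point per library and a line at the group mean; the diamond is GFPhi replicate 3 and the dashed line separates the GFP and genotype tables, which were normalized separately. *Ccnd2* was at 265 to 616 CPM in GFPhi and 178 to 200.2 CPM in GFPlo libraries, and at 300 to 324 CPM in WT and 124 to 156 CPM in Lmo2Tg libraries.

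The first question was whether cells that had divided little during the chase differed in the G1 machinery from those that had divided more. In GFPhi cells *Ccnd2* was higher and *Ccnd3* and *Cdk2* were lower, in all 3 libraries of each group without overlap, beside 41.3% of all genes tested, but none of the 9 genes tested passed an adjusted p of 0.05 over all 6 libraries with edgeR's quasi-likelihood test. Of all 11581 genes tested, 14.9% were called. At an unadjusted p under 0.05 there were 3 of the 9 genes (*Ccnd2*, *Ccnd3* and *Cdk2*), beside 33.4% of all genes, and DESeq2 called the same 3. Without GFPhi replicate 3, 4 of the 9 were called, *Ccnd2* and *Rb1* higher and *Ccnd3* and *Cdk2* lower, in a fit that called 41.3% of 11745 genes, 19.5% higher and 21.7% lower. The share of the 9 genes called is near that background.

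*Ccnd2* was at 348, 265 and 616 CPM in GFPhi replicates 1, 2 and 3, and at 200.2, 178 and 192 CPM in GFPlo replicates 1, 2 and 3. The GFPhi libraries all lay above the GFPlo ones, and replicate 3 was the highest by far. The log2 fold change was 1.11 ± 0.30 (SE), with an adjusted p of 0.060 by edgeR. Without GFPhi replicate 3 it was 0.69 ± 0.11 with an adjusted p of 0.0039, and without GFPhi replicate 2 it was 1.34 with an adjusted p of 0.035.

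*Ccnd3* was at 478, 469 and 251 CPM in GFPhi and at 556, 626 and 659 CPM in GFPlo replicates 1, 2 and 3. Here replicate 3 was the lowest of all. The log2 fold change was -0.62 ± 0.25, with an adjusted p of 0.14 by edgeR, and without replicate 3 -0.37 ± 0.08 with an adjusted p of 0.011. The other genes tested on chromosome 17 had a median of -0.15 over 6 libraries and -0.17 without replicate 3. With that median subtracted, *Ccnd3* was at -0.47 and, without replicate 3, at -0.20. The paper reports gains of whole chromosomes in GFPlo cells, and the part of copy number in this difference was not tested. The exons of *Ccnd3* overlap those of *Bysl* on the other strand, and the name of the GFP table reads as stranded counting, which the sources used here do not state.

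The 2 abundant D-type cyclins thus differed in opposite directions, and their sums overlapped. Per length, *Ccnd2* and *Ccnd3* with *Ccnd1* summed to 89.1 ± 6.53 CPM per kb (SD, n = 3) in GFPhi and 90.2 ± 5.47 (n = 3) in GFPlo libraries. *Ccnd2* made up 48.2% ± 18.8 of the sum in GFPhi libraries, with 69.6% in replicate 3, and 22.5% ± 2.31 in GFPlo libraries, the highest of which had 25.1% against 34.5% in the lowest GFPhi library. Without replicate 3 the sum was 86.6 ± 6.90 CPM per kb (n = 2) and the *Ccnd2* share 37.5% ± 4.23 in GFPhi libraries. *Ccnd3* took nearly all of the rest, 51.8% ± 18.8 in GFPhi (59.5% and 65.5% in replicates 1 and 2) and 77.5% ± 2.30 in GFPlo libraries. The shares were not tested apart from the genes.

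**Figure D2:**
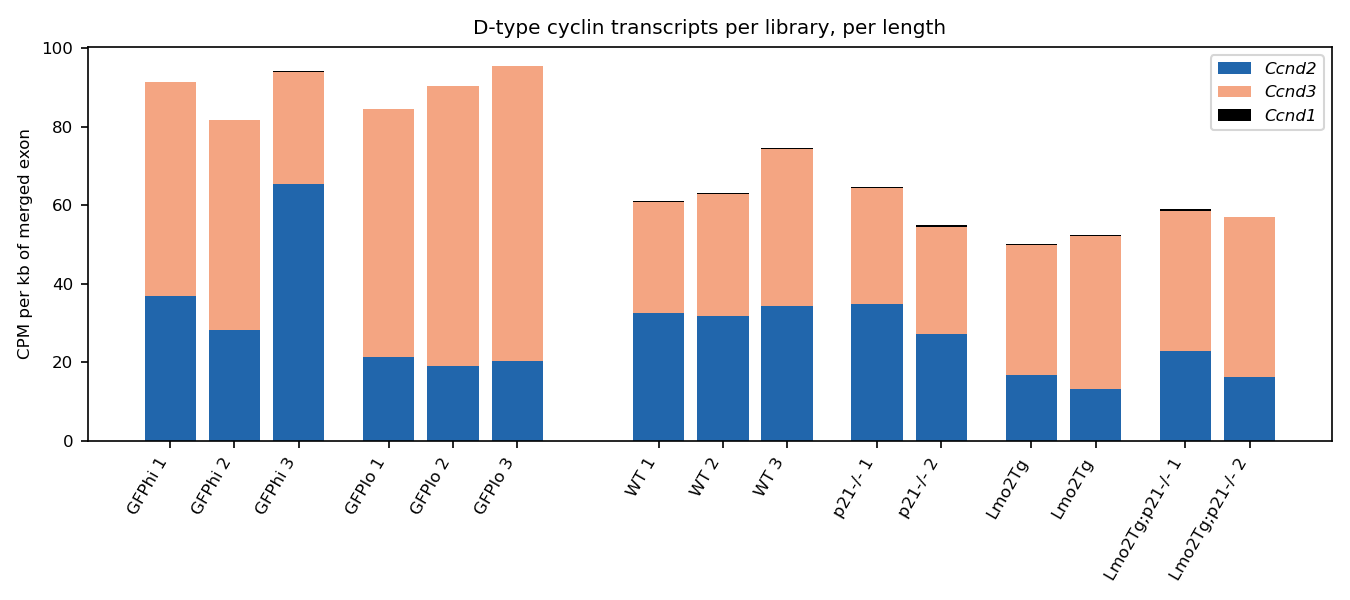
Stacked bars of D-type cyclin transcripts in each library, in CPM per kb of merged exon (y axis from 0), with the GFP table on the left and the genotype table, normalized separately, on the right; *Ccnd1* is at most a thin line. The GFPhi and GFPlo bars have like heights, 81.7 to 94.1 and 84.6 to 95.6 CPM per kb, and differ in the share of *Ccnd2*.

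The partner kinases gave less. *Cdk6*, the more abundant kinase by CPM, was at 1069.6, 1021 and 2466 CPM in GFPhi and at 1098, 1117 and 1109.7 CPM in GFPlo replicates. GFPhi replicate 3 was more than all others and GFPhi replicates 1 and 2 were below all GFPlo libraries, so that the log2 fold change turned from 0.45 ± 0.35 (adjusted p = 0.40, edgeR) to -0.08 ± 0.05 (0.27) without replicate 3. *Cdk4* was at 461, 472 and 430.1 CPM in GFPhi and 467, 489 and 483 CPM in GFPlo libraries, which overlapped, with a log2 fold change of -0.08 ± 0.06 (-0.03 ± 0.05 without replicate 3). *Cdk2*, the partner of the E-type cyclins, was at 125, 133 and 106 CPM in GFPhi and 146, 159 and 168 CPM in GFPlo libraries. Its log2 fold change was -0.38 ± 0.10 with an adjusted p of 0.058 by edgeR, and -0.28 ± 0.07 with 0.020 without replicate 3, which was the lowest library. The exons of *Cdk2* overlap those of *Pmel* on the other strand.

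The E-type cyclins overlapped between the groups. *Ccne1* was at 41.0, 46.8 and 22.8 CPM in GFPhi and 26.9, 35.0 and 38.7 CPM in GFPlo libraries, and *Ccne2* was at 63.4, 74.3 and 46.4 CPM in GFPhi and 45.1, 58.6 and 64.7 CPM in GFPlo libraries. For both, GFPhi replicates 1 and 2 were high and replicate 3 low. The log2 fold changes were 0.14 ± 0.28 and 0.13 ± 0.21 over 6 libraries and 0.39 ± 0.15 and 0.30 ± 0.15 without replicate 3, none of which was called by edgeR (adjusted p = 0.77, 0.70, 0.077 and 0.15).

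Of the pocket proteins, *Rb1* was at 109.7, 112 and 69.6 CPM in GFPhi and 80.0, 85.9 and 93.5 CPM in GFPlo libraries. GFPhi replicates 1 and 2 lay above every GFPlo library and replicate 3 below. The log2 fold change was 0.17 ± 0.19 (adjusted p = 0.57, edgeR) over 6 libraries and 0.36 ± 0.07 (0.0082) without replicate 3. *Rbl2* was at 153, 139.9 and 155 CPM in GFPhi and 144, 135 and 128 CPM in GFPlo libraries, and its log2 fold change of 0.14 ± 0.07 was not called (adjusted p = 0.22), nor was that of 0.12 ± 0.07 without replicate 3 (0.20). Its share of Rb-family transcripts per length, counted with *Rbl1*, was 31.9% ± 5.42 in GFPhi (28.9% ± 1.64 without replicate 3) and 27.4% ± 3.46 in GFPlo libraries. The shares of the groups overlapped, at 27.7% to 38.1% and 24.2% to 31.1%. They also depend on *Rbl1*, which was at 161 ± 26.2 CPM in GFPhi and 201 ± 26.4 CPM in GFPlo libraries and was not called (-0.32 ± 0.15, adjusted p = 0.20, edgeR).

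Beside these values, the 7 DN1/DN2 progenitor markers summed to 425, 434 and 219.5 CPM in GFPhi replicates 1, 2 and 3 and to 469 to 532 CPM in GFPlo libraries, and 6 markers of DP and later thymocytes to 285, 303 and 142 CPM and to 195 to 237 CPM. Myeloid and dendritic markers were at 10.8 to 13.3 CPM in GFPhi and at least 16.1 CPM in GFPlo libraries. The 5 thymic epithelial markers summed to 36.9 to 79.6 and 16.0 to 22.9 CPM. Nearly all of this was *Epcam*, with the other 4 (*Foxn1*, *Psmb11*, *Krt5* and *Krt8*) at 3 counts or fewer. The part of all these markers in the differences was not tested. In bulk RNA, a different share of cells and a different level per cell cannot be told apart.

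The other genes of the pathway were counted over lists of 53 genes in 7 groups. Over all 6 libraries 3 of the 53 genes were called in GFPhi against GFPlo cells, all lower, beside 14.9% of all genes. These were *Cdkn1c* (p57), at 0.360 ± 0.0595 CPM in GFPhi and 1.41 ± 0.321 in GFPlo libraries (log2 fold change -1.96 ± 0.30, adjusted p = 0.013 by edgeR), and the S-phase genes *Cdt1* (-0.65 ± 0.13, 0.025), which licenses replication origins, and *Tk1* (-0.58 ± 0.14, 0.044), the thymidine kinase. The median log2 fold change was -0.28 over the 13 G1/S target genes, -0.34 over the 4 later cyclins and *Cdk1*, and -0.23 over the 10 E2F and DP genes, beside 0.02 over all genes tested. Without GFPhi replicate 3 these medians were -0.15, -0.14 and -0.11, beside 0.0080 over all genes, and *Cdkn1c* (-2.06), *Cdt1* (-0.56) and *Tk1* (-0.53) were again called. Also without GFPhi replicate 3, 4 of 7 CDK inhibitors were called higher and 1 lower, with *Cdkn1a* at 1.67 (adjusted p = 6.2e-04) and *Cdkn2a* at 0.90 (0.0014). Over all 6 libraries these were 1.21 ± 0.59 (adjusted p = 0.21, edgeR) and 0.34 ± 0.89 (0.82), not called. Low *Cdkn1a* was among the values that set replicate 3 apart, so the *Cdkn1a* result without that library is not independent of the choice. None of the 4 inhibitors called higher without replicate 3 was called over all 6 libraries. *Cdkn2a* was at 1.19 CPM in the lowest GFPhi library, against 11.4 to 14.1 CPM in GFPlo libraries. Of the G1/S target genes 3 of 13 and of the E2F and DP genes 2 of 10 were called in the fit without replicate 3. All were lower, beside 19.5% of all genes called higher and 21.7% lower. The paper reports gains of whole chromosomes in GFPlo cells. The chromosomes of the pathway genes were not taken into account, and the part of copy number in these values was not tested.

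The second question was what the *Lmo2* transgene did to these genes in total DN3 cells. In Lmo2Tg against WT libraries 5 of the 10 genes were called by edgeR: *Ccnd2*, *Ccne2* and *Cdk4* were lower and *Rb1* and *Rbl2* higher. The fit called 36.6% of 11840 genes, 19.7% higher and 16.9% lower, so the share is not far from the background, and the 5 that did not overlap between the groups stand beside 60.9% of all genes. The same contrast made on the p21-/- background, Lmo2Tg;p21-/- against p21-/-, uses none of those libraries. There 4 of the 10 were called, *Ccnd2*, *Ccne2* and *Cdk4* lower and *Rbl2* higher, beside 30.7% of all genes (16.3% higher, 14.4% lower), and 5 did not overlap between the groups, beside 70.9% of all genes. Each of these 4 genes was also among the 5 called on the p21+/+ background, with the same direction. The share of all genes called in both with the same direction was not counted, so this is not read as particular to these genes.

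*Ccnd2* was at 305, 299.7 and 324 CPM in WT and at 156 and 124 CPM in Lmo2Tg libraries, both below every WT library. The log2 fold change was -1.14 ± 0.16 with an adjusted p of 3.0e-04 by edgeR. It was the only one of the 10 genes with a called change above 2-fold in this comparison, a rule met by 12% of all genes, and the call was kept with each library left out in turn. On the p21-/- background *Ccnd2* was at 327 and 256 CPM without and 216 and 154 CPM with the transgene, which gave a log2 difference of -0.66 ± 0.17 (adjusted p = 0.013). That call was lost without Lmo2Tg;p21-/- replicate 2 (-0.44, adjusted p = 0.078) and without p21-/- replicate 1 (-0.47, 0.100).

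*Ccnd3*, the other abundant D-type cyclin, was not called. It was at 248, 271 and 350 CPM in WT, 291 and 342 CPM in Lmo2Tg, 259 and 239 CPM in p21-/- and 313 and 356 CPM in Lmo2Tg;p21-/- libraries. The log2 fold changes were 0.13 ± 0.14 (adjusted p = 0.49, edgeR) and 0.42 ± 0.15 (0.052), and the second was called by DESeq2 (0.014), in a fit without the filter on low counts (0.017) and in a fit of only the libraries compared (0.012). Per length, *Ccnd2* made up 49.9% ± 3.51 of D-cyclin transcripts in WT and 51.7% ± 2.96 in p21-/- libraries. It made up 29.2% ± 5.67 in Lmo2Tg and 33.7% ± 7.28 in Lmo2Tg;p21-/- libraries, with every library of either transgenic group below every one without the transgene. The D-cyclin sum was 66.2 ± 7.25 CPM per kb in WT and 51.3 ± 1.58 in Lmo2Tg libraries, without overlap, and 59.7 ± 6.91 in p21-/- and 58.1 ± 1.37 in Lmo2Tg;p21-/- libraries, which overlapped. *Ccnd1* remained at 1.03 to 2.00 CPM in all 9 libraries.

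Of the E-type cyclins *Ccne2* was lower. It was at 56.3, 52.3 and 62.5 CPM in WT and at 37.5 and 37.5 CPM in Lmo2Tg libraries, and at 61.0 and 56.7 CPM in p21-/- and 39.1 and 51.1 CPM in Lmo2Tg;p21-/- libraries. Neither pair of groups overlapped. The log2 fold changes were -0.60 ± 0.12 (adjusted p = 0.0028, edgeR) and -0.38 ± 0.13 (0.042). The first call was kept with each library left out in turn. The second call was lost without Lmo2Tg;p21-/- replicate 1 (-0.21, 0.29), without p21-/- replicate 1 (-0.33, 0.17) and without p21-/- replicate 2 (-0.44, 0.089), and in a fit of only the libraries compared (-0.38, 0.068). *Ccne1* was at 24.3 to 34.4 CPM in WT and 23.4 to 28.1 CPM in Lmo2Tg libraries, with log2 fold changes of -0.13 ± 0.18 and, on the p21-/- background, -0.33 ± 0.20, neither called. *Ccne1* is the only one of the 10 genes whose exons overlap no other annotated gene.

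*Cdk4* was at 447, 462 and 543 CPM in WT and 363 and 416 CPM in Lmo2Tg libraries, and at 452 and 472 CPM in p21-/- and 338 and 373 CPM in Lmo2Tg;p21-/- libraries. The transgenic libraries lay below their controls without overlap on both backgrounds. The log2 fold changes were -0.31 ± 0.10 (adjusted p = 0.033, edgeR) and -0.38 ± 0.11 (0.025). Against WT the call was lost without WT replicate 3 (-0.22, 0.068), without the shallower Lmo2Tg library of 14003156 counts (-0.22, 0.25) and in a fit of only the libraries compared (-0.31, 0.065). On the p21-/- background it was lost without Lmo2Tg;p21-/- replicate 1 (-0.32, 0.17), without p21-/- replicate 1 (-0.41, 0.066) and without p21-/- replicate 2 (-0.35, 0.12). *Cdk6* was at 1286 to 1694 CPM in WT and 1368 to 1653 CPM in Lmo2Tg libraries, with a log2 fold change of -0.02 ± 0.13, and *Cdk2* at 109.9 to 126 and 119 to 131 CPM with 0.09 ± 0.08. On the p21-/- background these were 0.15 ± 0.14 and -0.01 ± 0.09. The exons of *Cdk4* overlap those of *Tspan31* on the other strand.

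The pocket proteins went the other way. *Rbl2*, whose product p130 is the pocket protein of resting cells, was at 71.7, 71.7 and 57.9 CPM in WT and 104 and 89.0 CPM in Lmo2Tg libraries. On the p21-/- background it was at 69.1 and 70.8 CPM without and 132 and 104 CPM with the transgene. No transgenic library overlapped one without the transgene. The log2 fold changes were 0.52 ± 0.13 (adjusted p = 0.0080, edgeR) and 0.76 ± 0.14 (0.0021). The first was lost without the shallower Lmo2Tg library (0.41, 0.078), and the second was kept with each library left out in turn. *Rbl2* took 18.9% ± 1.06 of Rb-family transcripts per length in WT, 18.0% ± 0.372 in p21-/-, 23.6% ± 4.03 in Lmo2Tg and 28.0% ± 5.98 in Lmo2Tg;p21-/- libraries.

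*Rb1* was at 76.0, 72.4 and 61.5 CPM in WT and 85.3 and 109 CPM in Lmo2Tg libraries, without overlap, and its log2 fold change by edgeR was 0.47 ± 0.12 (adjusted p = 0.011). The call was lost without the deeper Lmo2Tg library of 15176210 counts (0.28, 0.13). On the p21-/- background *Rb1* was at 75.3 and 79.7 CPM without and 77.4 and 88.4 CPM with the transgene, which overlapped (0.10 ± 0.13, 0.60). Whether the transgene's effect differed between the backgrounds was tested by the interaction. For *Rb1* it was -0.37 ± 0.18 with an adjusted p of 0.30, for *Ccnd2* 0.48 ± 0.23 with 0.29 and for *Ccnd3* 0.30 ± 0.20 with 0.46, so that no difference was shown. None of the 10 genes was called for it by edgeR, none had an unadjusted p under 0.05 and DESeq2 called none, while 1.38% of all genes were called by edgeR and 18.1% had such an unadjusted p.

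**Figure D3:**
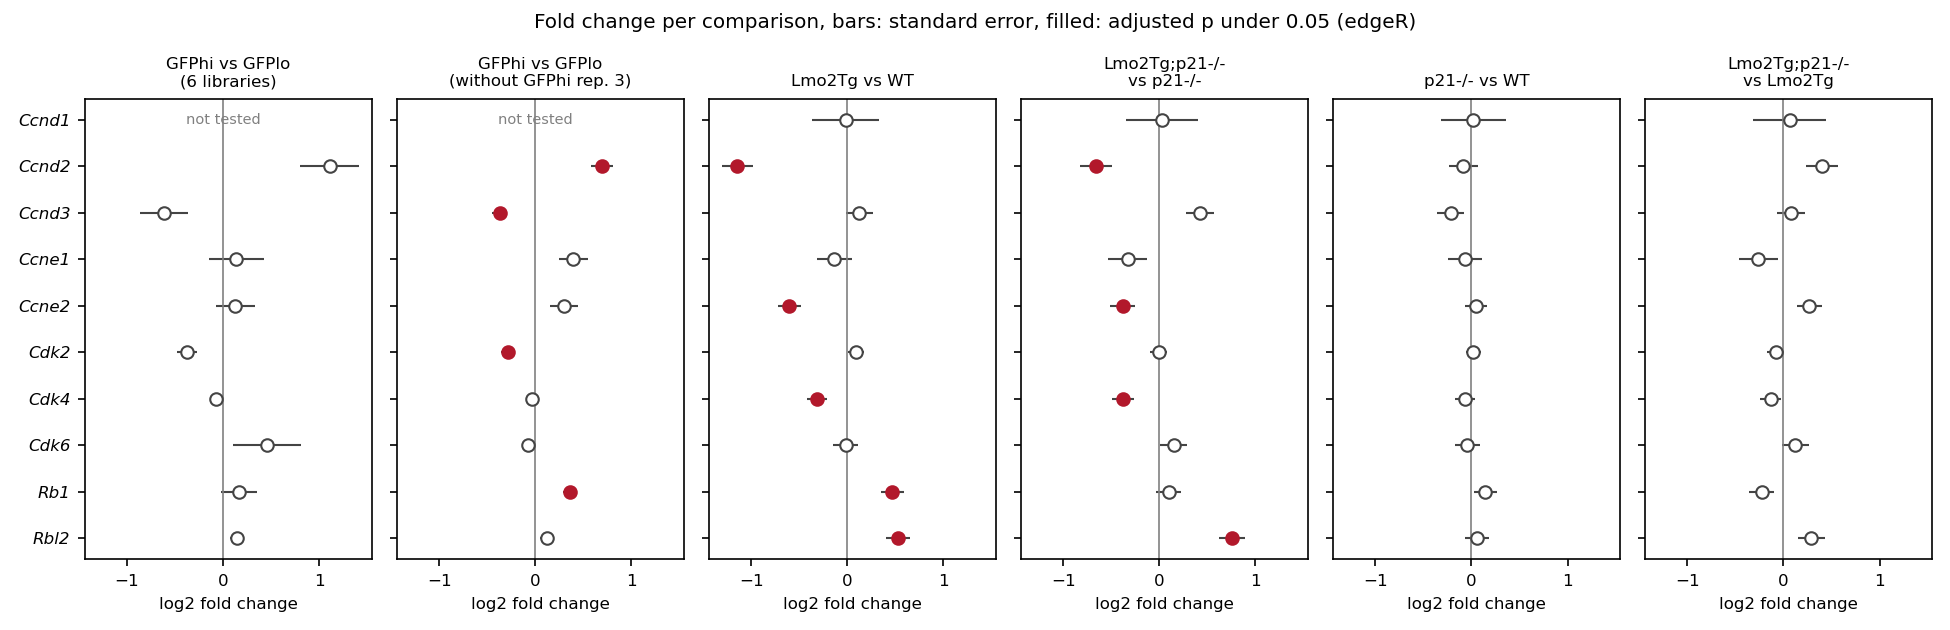
Log2 fold change (x axis) of each gene in 6 comparisons, with bars of 1 standard error and filled points for an adjusted p under 0.05 in edgeR's quasi-likelihood test. *Ccnd2*, *Ccne2* and *Cdk4* are filled on the left and *Rbl2* on the right in both comparisons of the *Lmo2* transgene, and no gene is filled in the last 2 panels, the comparisons of p21 loss.

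Beside these differences, the 7 DN1/DN2 progenitor markers summed to 99.4 to 126 CPM in WT and 118 to 127 CPM in p21-/- libraries and to 202 to 305 and 309 to 393 CPM in Lmo2Tg and Lmo2Tg;p21-/- libraries, without overlap. The 6 markers of DP and later cells were at 74.4 to 89.8, 79.8 to 82.8, 230.0 to 297 and 129 to 147 CPM in the same order, and the 5 innate-like and gamma-delta markers at 84.9 to 94.4, 77.4 to 113, 169 to 209 and 229.7 to 260.4 CPM. DN3 markers were at 12848 to 13859 CPM without and 9993 to 10985 CPM with the transgene. B-lineage markers summed to 32.2 to 42.8 CPM without and 20.5 to 25.9 CPM with it. Thymic epithelial markers, nearly all *Epcam* with the same 4 of 5 at 3 counts or fewer, summed to 41.3 to 57.0 and 14.1 to 19.6 CPM. The DN1/DN2 list holds *Kit* and *Lyl1*, which the paper names among the targets downstream of Lmo2. The part of cell composition in the results was not tested.

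The third question was whether loss of p21, a CDK inhibitor, changed the transcript levels of these genes. In p21-/- against WT libraries none of the 10 genes was called by edgeR or DESeq2 and none had an unadjusted p under 0.05, where 0.11% of all genes were called and 3.3% had such a p. The log2 fold changes lay between -0.22 (*Ccnd3*, SE 0.14) and 0.15 (*Rb1*, SE 0.12), and no gene was without overlap between the groups, beside 19.5% of all genes. In Lmo2Tg;p21-/- against Lmo2Tg libraries none was called by edgeR or DESeq2 either, beside 6.94% of all genes. *Ccnd2* was the only gene with an unadjusted p under 0.05 (25.5% of all genes), its log2 difference being 0.40 ± 0.17 and its adjusted p 0.17. *Rbl2* (0.29 ± 0.14, 0.21) and *Ccne2* (0.27 ± 0.13, 0.22) were also not called. *Cdkn1a* itself changed by -1.36 ± 0.17 and -2.92 ± 0.21 on the log2 scale in these comparisons (adjusted p = 0.0082 and 9.1e-05). Each of these comparisons shares a group with both transgene comparisons, so they are not independent of them.

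In the order of the levels over the genotypes, neighbours did not overlap at few places. *Ccnd2* ran from WT and p21-/-, which overlapped, to Lmo2Tg;p21-/- and Lmo2Tg, which overlapped with each other. *Cdk4* ran from WT and p21-/- to Lmo2Tg and Lmo2Tg;p21-/-, and *Rbl2* from Lmo2Tg;p21-/- and Lmo2Tg to p21-/- and WT, in both cases with the gap between the transgenic groups and the others. For *Ccne2*, p21-/- and WT lay above Lmo2Tg;p21-/-, which lay above Lmo2Tg. *Ccne2* was not called between Lmo2Tg;p21-/- and Lmo2Tg (adjusted p = 0.22, edgeR), and the share of all genes without overlap there was not counted. For *Ccnd1*, *Ccnd3*, *Ccne1*, *Cdk2*, *Cdk6* and *Rb1* every group overlapped its neighbours in the order.

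The rest of the pathway was read from the same fits. In Lmo2Tg against WT libraries 5 of 7 CDK inhibitors were called higher and 1, *Cdkn1a*, lower, in a fit that called 19.7% of all genes higher and 16.9% lower. *Cdkn2a*, which encodes p16INK4a and p19ARF, was at 0.0626 ± 0.0636 CPM in WT, below the level of 3 counts, and at 8.10 ± 1.41 CPM in Lmo2Tg libraries. *Cdkn2d* (p19INK4d) was at 27.3 ± 2.48 and 69.0 ± 2.62 CPM (log2 fold change 1.34, edgeR adjusted p = 5.1e-06). Of the E2F and DP genes 4 of 10 were lower and 1 higher, with the repressor *E2f7* at -1.03 (0.0010) and the activator *E2f3* at -0.47 (0.0077). Of 8 genes for the turnover of G1 cyclins and inhibitors 2 were lower, with *Skp2*, the F-box protein for p27, at -0.90 (0.0013). G1/S target genes were lower in 3 of 13, with *Uhrf1* at -0.51 (0.0086) and *Tk1* at -0.59 (0.016). Of the later cyclins and *Cdk1*, 1 of 4 was lower, *Ccnb1* at -0.52 (0.035). Of the CDK-activating genes 1 of 4 was lower, *Cdk7* at -0.34 (0.019). Of the other Rb-family and DREAM genes 1 of 7 was lower, *Mybl2* at -0.33 (0.044), while *Rbl1* (p107) was not called (-0.06 ± 0.09).

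On the p21-/- background the transgene contrast called 14.4% of all genes lower and 16.3% higher. G1/S target genes were lower in 12 of 13 and higher in none, with *Tyms* at -0.63 (adjusted p = 0.0062, edgeR) and *Mcm2* at -0.50 (0.0050). All 4 later cyclin genes were lower, among them *Ccnb1* at -0.75 (0.011) and *Ccna2* at -0.70 (0.014). E2F and DP genes were lower in 6 and higher in 1 of 10, with *E2f7* at -1.05 (0.0015) and *E2f2* at -0.67 (0.0030). CDK inhibitors were higher in 4 and lower in 1 of 7, with *Cdkn2a* at 7.05 ± 0.230 CPM against 0.0949 ± 0.134 CPM, and *Cdkn1a*, whose remaining reads were at 3.93 against 16.0 CPM, at -2.03 (5.7e-05). The median over the 13 G1/S target genes was -0.47 on the p21-/- and -0.24 on the p21+/+ background, beside -0.0043 and -0.01 over all genes tested, and the interaction called none of the 13. Genes for CDK activation (2 lower of 4), turnover (1 higher, 1 lower of 8) and the other Rb-family and DREAM genes (1 lower of 7, *Mybl2* at -0.68, 0.0024) made up the rest. For the loss of p21 itself, *Cdkn1a* was the only gene of the 53 called, with and without the transgene.

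**Figure D4:**
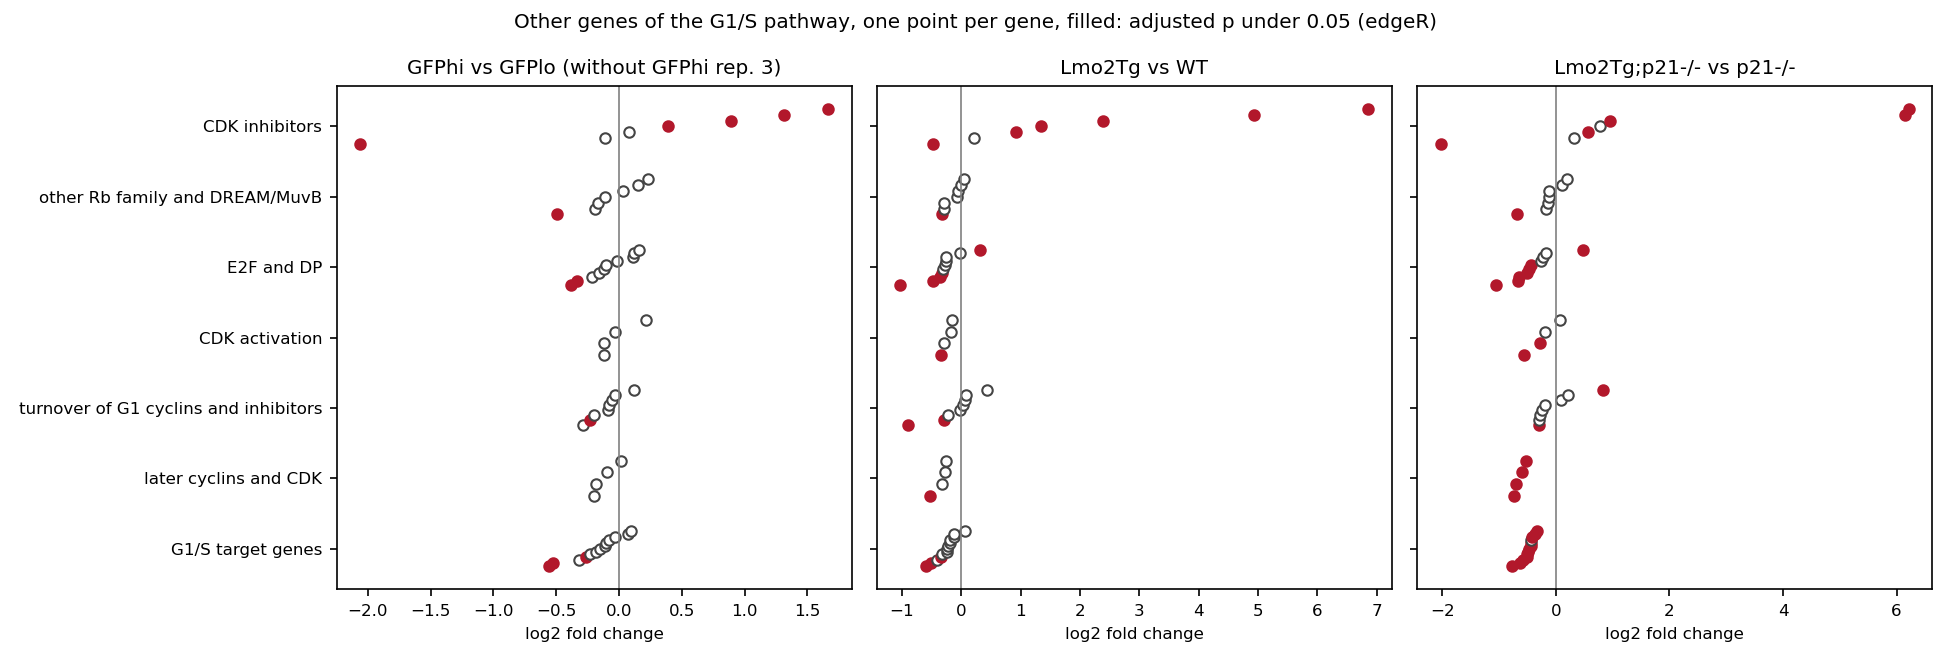
Log2 fold change (x axis, with its own scale in each panel) of every gene of the 7 pathway lists, 1 point per gene, filled where the adjusted p is under 0.05 in edgeR; fitted values of *Cdkn2a* and *Cdkn2b* in the right-hand panels rest on near-zero levels without the transgene and are not bounds. In the panel on the p21-/- background 12 of 13 G1/S target genes and 4 of 4 later cyclins are filled and lower.

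For the 5 genes called in a transgene comparison, the genes with the most similar profile over all 15 libraries were looked up among 9297 genes by Pearson's correlation of log2 CPM centred within each table, as a description, since the libraries share tables and groups. *Ccnd2* was most like *Repin1* (r = 0.978), *Hid1* (0.976) and *Gm5111* (0.968). *Cdk4* was most like *Pold2* (0.990), a subunit of DNA polymerase delta, *Tkt* (0.985), the transketolase, and *Siva1* (0.977). *Ccne2* was most like *Fignl1* (0.929), *Ercc6l* (0.928) and *Ska2* (0.927), the last of which is a kinetochore gene. *Rbl2* was most like *Rnf111* (0.973) and *Fam129a* (0.968), and *Rb1* most like *Actr3*, *Agfg1* and *Cmpk1* (0.921 to 0.923).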

How the data were processed

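Poly-A RNA of sorted DN3 thymocytes was sequenced. Per the labels' processing notes, STAR 2.4.2a, featureCounts, limma and mm10 were used, with no role or order given, and the authors deposited raw whole-number read counts per gene in 1 table for the GFP-sorted and 1 for the genotype libraries. The counts were used as deposited. The tables' names read as reverse-stranded counting for the GFP and unstranded counting for the genotype libraries. The sources used here do not state the setting. Groups came from the labels and column names. The Lmo2Tg columns name the group but not the sample, 1 column that matched no sample was not used, and p21-/- replicate 3 was not analysed here, which left 15 of 16 samples. Depth ranged from 13864936 to 31106213 counts.

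Genes were filtered with filterByExpr (minimum count 10, minimum total 15), scaled by TMM and tested with the quasi-likelihood test of edgeR 4.0.16 (R 4.3.3), with Benjamini-Hochberg adjustment over all genes and a call at 0.05. The GFP table was fitted on 6 libraries and the genotypes in 1 fit of 9, which share the estimate of the spread. The standard error (SE) of a log2 fold change was worked back from the test, as its absolute value divided by the square root of the F statistic. Values are TMM-normalized CPM, and levels were compared between genes per kb of merged exon (GENCODE M21, 98.6% of genes matched). Levels were not tested between the tables. Likeness used genes of at least 5 CPM on average and a pseudocount of 0.5, with each gene centred within each table, and 1 gene it named is not reported here. Libraries of a group were compared by a chi-square test of their counts, and none was a repeat of another. Alternatives were DESeq2 1.42.0, limma 3.58.1 with voom weights, RLE scaling, no filter, a fold above 2 at an adjusted p of 0.01 (GFP) or 0.05, only the libraries compared, the chromosome median subtracted, coding length for shares, a replicate block and each library left out. The scripts were tested on simulated data. All 10 genes are named, and from each of the 7 pathway lists at most the 2 called genes with the smallest p per comparison, with *Rbl1*, *Cdkn1a* and *Cdkn2a* named after their values were seen where they fall outside this rule. The 10 genes and the lists were chosen with earlier results of these data known.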

Additional observations from a re-analysis of the deposited data

How the results depend on the processing

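Of 59 gene and comparison pairs tested, the 9 calls kept their direction under every alternative run. They no longer passed the threshold in 12 fits with a library left out and in 10 others, 8 of these by the rule of a fold above 2 and 2 in fits of only the libraries compared. Under that rule 1 of the 10 genes was called in Lmo2Tg against WT and 0 in Lmo2Tg;p21-/- against p21-/-. With a library left out, the number of the 10 genes called was 0 to 4 for GFPhi against GFPlo (4 without GFPhi replicate 3), 3 to 5 for Lmo2Tg against WT and 1 to 3 for Lmo2Tg;p21-/- against p21-/-. DESeq2 called 3 for GFPhi against GFPlo.

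Counts over all genes moved more. GFPhi against GFPlo gave 1721 genes, with 2913 by DESeq2, 261 by the fold rule and 273 to 4848 with a library left out. For p21-/- against WT there were 13 genes, with 20 by DESeq2, 21 without the filter and 8 to 18 with a library left out. Lmo2Tg against WT gave 4329, with 1420 by the fold rule and 2815 to 3836 with a library left out. Lmo2Tg;p21-/- against Lmo2Tg gave 822, with 222 by the fold rule, 404 from only the libraries compared and 60 to 514 with a library left out. Lmo2Tg;p21-/- against p21-/- gave 3639, with 1230 by the fold rule and 1914 to 3179 with a library left out. The interaction gave 163, with 459 by DESeq2, 520 without the filter, 95 by the fold rule and 0 to 449 with a library left out. The cause was not tested.

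Between libraries of equal replicate number the correlations of deviations were 0.10, -0.10 and 0.084 for GFPhi and GFPlo. They were 0.053 for p21-/- and WT and 0.072 for Lmo2Tg;p21-/- and p21-/-. Not every GFP library correlated best with its own number. With so few libraries these values cannot decide whether equal numbers mark pairs, and in the genotype groups they only mirror each other. With the replicate block 496 genes and 0 of the 10 were called for GFPhi against GFPlo, 16 and 0 for p21-/- against WT and, in a fit added after the data were seen, 4264 and 5 for Lmo2Tg;p21-/- against p21-/-, where *Ccnd3* had an adjusted p of 0.0077 by edgeR. The block turned log2 fold changes near 0 in p21-/- against WT to -0.064 for *Ccnd1*, 0.095 for *Ccne1*, 0.023 for *Cdk4* and -0.037 for *Rbl2*. limma-voom gave *Ccnd1* -0.053 in Lmo2Tg;p21-/- against p21-/- and -0.024 in the interaction.

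None of the values that turned with a library left out had been called. In GFPhi against GFPlo the ranges were -0.072 to 0.39 for *Ccne1*, -0.033 to 0.30 for *Ccne2* and -0.078 to 0.67 for *Cdk6*. In p21-/- against WT the ranges were -0.067 to 0.13 for *Ccnd1*, -0.28 to 0.081 for *Ccnd2*, -0.21 to 0.097 for *Ccne1*, -0.016 to 0.11 for *Ccne2*, -0.038 to 0.075 for *Cdk2*, -0.12 to 0.021 for *Cdk4*, -0.15 to 0.040 for *Cdk6* and -0.040 to 0.11 for *Rbl2*. In Lmo2Tg against WT the ranges were -0.31 to 0.24 for *Ccnd1*, -0.28 to 0.034 for *Ccne1* and -0.16 to 0.11 for *Cdk6*. In Lmo2Tg;p21-/- against Lmo2Tg the ranges were -0.48 to 0.47 for *Ccnd1*, -0.038 to 0.20 for *Ccnd3* and -0.0044 to 0.26 for *Cdk6*. In Lmo2Tg;p21-/- against p21-/- the ranges were -0.52 to 0.44 for *Ccnd1*, -0.065 to 0.049 for *Cdk2* and -0.011 to 0.18 for *Rb1*. In the interaction the ranges were -0.50 to 0.45 for *Ccnd1*, -0.47 to 0.0061 for *Ccne1* and -0.16 to 0.037 for *Cdk4*.

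With 2 libraries in 3 of the genotype groups, a group left with 1 library is assumed to vary like the others. Shares of D-type cyclins per length moved little with coding length (*Ccnd2* 52.0% in WT and 30.9% in Lmo2Tg libraries), while *Cdk4* fell from 57.7% to 25.7% of *Cdk4* and *Cdk6* in WT libraries, so the order of these kinases depends on the length used. Depth limits *Ccnd1*.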
